A study of Sus scrofa domesticus with 4 samples.

Results

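ATF4, DDIT4 and DDIT3 are stress response genes, and their transcripts were followed in pig endometrium cultured with the neuropeptide orexin A (OXA). The 3 genes were chosen by their log2 ratios of OXA over control on these same arrays, where DDIT4 had the lowest mean of all named genes, and the choice was made with those ratios known. Their ratios are therefore given as a description, with no test. They are 3 of 3029 genes that could be named on the array through RefSeq accessions. They have 11 of its 43603 probes, 6 for ATF4, 4 for DDIT4 and 1 for DDIT3. All 11 were well above background in 8 of 8 readings, meaning in both dyes on each of 4 arrays, none was saturated, and none was marked as an outlier spot, so no member was lost to the filter on dim probes.

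The OXA group was endometrial tissue cultured for 24 h with OXA at 10 nM per the sample labels, or 10 µM per the design text of the series. The control group was endometrial tissue cultured for the same time without OXA. Both groups came from 4 mature Large White x Polish Landrace gilts, aged 7 to 8 months, on days 15 to 16 of gestation, and all slices (3 mm, about 100 mg) had first been kept for 2 h in medium. Each of the 4 two-colour arrays set 1 OXA RNA against 1 control RNA, and the labels do not say whether both came from the same gilt. Per the single-sample labels arrays 1 and 3 carried OXA RNA in Cy5, and the dyes were swapped on arrays 2 and 4, while the labelling protocol words OXA as Cy5 throughout. A slice holds epithelium, stroma, vessels and immune cells together, so fewer cells of a type and less RNA per cell cannot be told apart, and the spread between arrays may hold animal, tissue piece and handling alike.

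ATF4 is the transcription factor of the integrated stress response, the pathway by which a cell that lacks amino acids, is short of oxygen or holds unfolded protein phosphorylates the translation factor eIF2 alpha and slows protein synthesis. ATF4 is made mainly through more translation of its mRNA under that stress, so that arrays, which measure mRNA, see only part of its control. DDIT3 (also called CHOP) is a transcription factor that ATF4 switches on and that is known for promoting cell death in prolonged stress. DDIT4 (also called REDD1) is a small cytosolic protein that holds back the growth kinase complex mTORC1 through the TSC complex. Its gene is known to respond to ATF4, low oxygen and glucocorticoids. The uterine lining at this stage is a secretory tissue, whose epithelium makes much protein for the conceptus.

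The scale of all values below is log2. A level is the intensity of 1 dye after background correction and normalization, and a ratio is OXA over control on 1 array. The mean of the 4 ratios equals the OXA coefficient of the fit across all probes. Its SE comes from a fit that also holds a dye coefficient, which takes up any split between arrays with OXA in Cy5 and arrays with OXA in Cy3. That SE is therefore smaller than the spread over all 4 arrays wherever a gene splits by dye. For ATF4, DDIT4 and DDIT3 the SD over arrays is given beside the SE. Other genes carry the SE alone, and some of them split by dye.

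Spots well above background made up 62.3% to 74.5% of the Cy5 readings. Among Cy3 readings array 1 had 31.7%, against 52.1% to 56.7% for the remaining arrays. Array 1 also had a slide of its own, with a scan 71 days later than that of arrays 2 to 4. Of 26927 probes tested, 0 passed limma's test at an adjusted p under 0.05 (0% called), and 500 had an unadjusted p under 0.05. The intensity trend with robust fitting also called 0, while leaving out array 4 called 6 probes. The number of arrays limits the precision.

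ATF4 mRNA was measured by 6 probes, and its brightest probe stands for the gene where 1 value is given. In OXA RNA that probe had levels of 16.30, 15.90, 15.81 and 16.07 on arrays 1 to 4, against 17.11, 16.07, 16.51 and 16.02 in control RNA. The 2 groups overlapped, with the highest control level on array 1. Its ratios were -0.81, -0.17, -0.70 and 0.05, a mean of -0.41 ± 0.41 (SD, n = 4; SE 0.07), which is a fold of 0.753. The arrays with OXA in Cy5 averaged -0.76 and those with OXA in Cy3 -0.06.

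The other 5 ATF4 probes told the arrays apart in another way. On array 1 they ran from -1.20 to -0.54, so that 6 of 6 probes were below 0 there. On array 2 they ran from -0.11 to -0.02, close to 0. On array 3, where the brightest probe was at -0.70, the other 5 were all above 0, from 0.09 to 0.29. On array 4, where the brightest probe was at 0.05, they ran from -0.22 to -0.00. Among the 6 ATF4 probes 0 were below 0 on all 4 arrays. The means of the other 5 over all arrays were -0.29 to -0.16. Over arrays 2 to 4 alone those 5 means lay between -0.07 and 0.04, while the brightest probe averaged -0.28 ± 0.39 (SD, n = 3). The ATF4 difference was thus seen by every probe on array 1 and by the brightest probe alone on array 3.

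The sign of those 5 probes on array 3 depended on the processing. In the scanner software's own log ratio they were -0.18 to -0.04 on array 3, and the brightest probe was at -0.50. The same source gave -1.23 to -0.60 for the 5 on array 1, where the brightest probe was at -1.08. Of the probes kept, 460 were at least as bright as the brightest ATF4 probe, and their median OXA coefficient was 0.01.

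DDIT3 mRNA was measured by a single probe. Its levels in OXA RNA were 10.57, 11.32, 11.19 and 10.62 on arrays 1 to 4, against 11.81, 11.48, 11.21 and 10.60 in control RNA. The groups overlapped, and the 2 RNAs stood far apart on array 1 only. The ratios were -1.24, -0.15, -0.02 and 0.02, a mean of -0.35 ± 0.60 (SD, n = 4; SE 0.23). Without array 1 the plain mean was -0.05 ± 0.09 (SD, n = 3), so the DDIT3 value rests on that array.

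DDIT4 mRNA was the lowest of the 3 with OXA and the lowest of all 2407 named genes measured. In OXA RNA its brightest probe had levels of 13.95, 14.48, 14.56 and 14.29 on arrays 1 to 4, against 15.14, 14.63, 17.06 and 14.99 in control RNA. On this probe all 4 OXA levels lay below all 4 control levels, by a narrow margin between 14.56 and 14.63, while on each of the other 3 DDIT4 probes the groups overlapped. Among named genes 0.166% had OXA levels wholly below control levels, namely MT1A, BTG1, HMOX2 and DDIT4. These 4 were listed after their values were seen, and since DDIT4 was chosen on this contrast nothing is read from that share. The ratios were -1.18, -0.15, -2.50 and -0.70, a mean of -1.13 ± 1.01 (SD, n = 4; SE 0.26) and a fold of 0.456.

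The DDIT4 ratio of array 3 went with a high control level. Arrays 1 and 3 carried the RNAs in the same dyes but lay on different slides. Control RNA on array 3 was 1.92 above control RNA on array 1, while OXA RNA was 0.60 above. Control was in Cy3, where 31.7% of readings were well above background on array 1 and 52.1% on array 3. A slide effect on these differences cannot be told apart. The 4 OXA levels spread less (SD 0.27) than the 4 control levels (SD 1.09). That control SD holds the array 3 level of 17.06, while the control levels of arrays 1, 2 and 4 lay between 14.63 and 15.14. The OXA levels lay between 13.95 and 14.56. Without array 3 the plain mean of the other ratios was -0.68. On array 2 both RNAs were nearly level, 14.48 with OXA against 14.63 in control tissue.

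**Figure D1:**
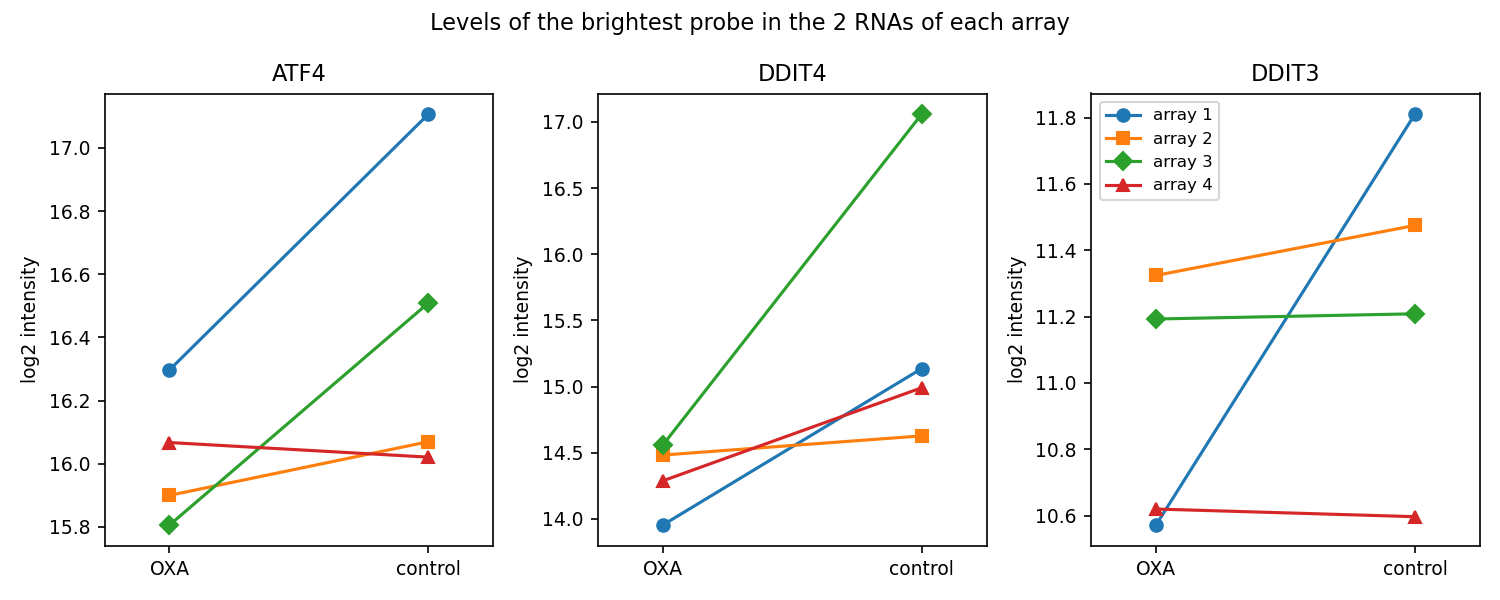
Levels (log2 intensity, vertical axis, scaled per panel) of the brightest probe of ATF4, DDIT4 and DDIT3 in OXA RNA (left) and control RNA (right), with 1 line per array. For DDIT4 the control level of array 3 (17.06) stands above the other 3 control levels (14.63 to 15.14), while for DDIT3 only the line of array 1 is steep.

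The 4 DDIT4 probes pointed the same way with different sizes. From brightest to dimmest their means were -1.13, -1.15, -0.73 and -0.30, and 3 of 4 were below 0 on every array, the dimmest by next to nothing on array 4. On array 3 they were -2.50, -2.37, -1.83 and -0.25. On array 1 they were -1.18, -1.35, -0.68 and -0.72. On array 2 they lay between -0.22 and 0.01, and on array 4 between -0.70 and -0.00. The dimmest probe was the smallest on array 3 after background correction, but in the scanner software's log ratio it read -1.36 there and the other 3 read -2.40 to -1.91.

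**Figure D2:**
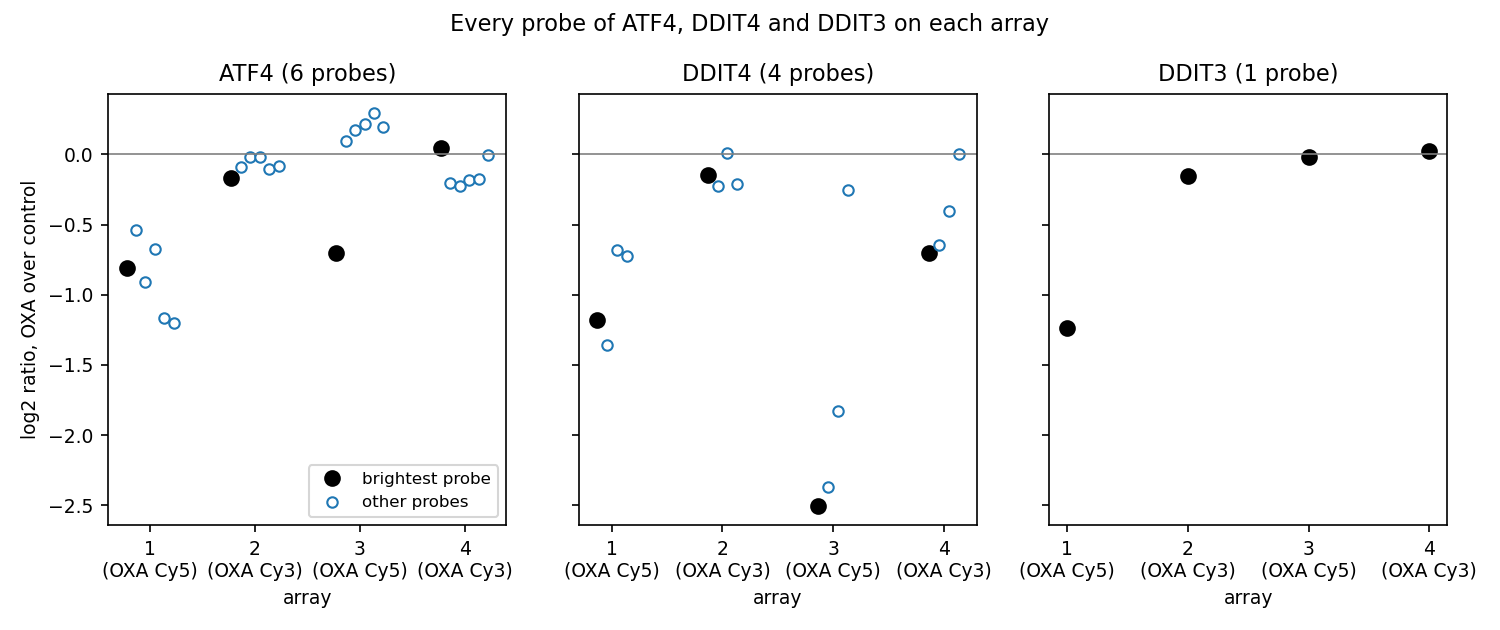
Log2 ratio of OXA over control (vertical axis) of each probe of ATF4 (6), DDIT4 (4) and DDIT3 (1) on arrays 1 to 4, with the dye of OXA under each number; filled points are the brightest probe of a gene and open points its other probes. All probes of all 3 genes lie below 0 on array 1, all DDIT4 probes lie below 0 on array 3, and the open ATF4 points lie above 0 on array 3.

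Whether ATF4 and DDIT4 moved together was read array by array, since 4 arrays are too few for a correlation. Both brightest probes were below 0 on 3 of 4 arrays. With the scanner software's ratio that count was 4 of 4, and with median centring or with OXA in Cy5 throughout it was 2 of 4. On array 1 the 3 genes stood close to each other, with ATF4 at -0.81, DDIT4 at -1.18 and DDIT3 at -1.24. On array 2 all 3 were near 0, between -0.17 and -0.15. On array 3 DDIT4 was at -2.50, ATF4 at -0.70 with its other 5 probes above 0, and DDIT3 at -0.02. On array 4 DDIT4 was at -0.70 while ATF4 was at 0.05, with its other 5 probes between -0.22 and -0.00, and DDIT3 was at 0.02. The 3 genes were thus low together on array 1, and DDIT4 was low without DDIT3 on arrays 3 and 4.

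The place of each gene among all 2407 named genes showed the same division. Counted from the lowest ratio, ATF4, DDIT4 and DDIT3 were in places 121, 38 and 28 on array 1. On array 3 they were in places 37, 1 and 518, and on array 4 in places 1939, 48 and 1787. On array 2 they were in places 874, 939 and 927. The names were chosen on these ratios, and the places are given as a description only.

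By the means of their brightest probes, all 3 genes were lower where OXA was in Cy5 than where it was in Cy3. For DDIT4 the means were -1.84 with OXA in Cy5 and -0.42 with OXA in Cy3, and the dye coefficient was -0.71. For DDIT3 they were -0.63 and -0.06, with a dye coefficient of -0.28, and for ATF4 the dye coefficient was -0.35. The DDIT3 split rests on array 1, since array 3, also with OXA in Cy5, read -0.02. The other 5 ATF4 probes were higher on array 3 (0.09 to 0.29) than on arrays 2 and 4, where they were below 0. If OXA was in Cy5 on all arrays, as the labelling protocol has it, the signs of arrays 2 and 4 turn, and the means become -0.71 for DDIT4, -0.35 for ATF4 and -0.28 for DDIT3. The authors' deposited table follows the dye swap of the sample labels, since its slopes on the scanner's ratio of Cy5 over Cy3 were 1.06 and 1.04 on arrays 1 and 3 and below 0 on arrays 2 and 4. Array 1 alone lies on its own slide. On the slide of arrays 2 to 4 the plain means were -1.12 ± 1.23 for DDIT4, -0.28 ± 0.39 for ATF4 and -0.05 ± 0.09 for DDIT3 (SD, n = 3). In the fit with both coefficients on these 3 arrays, DDIT4 was -1.46, ATF4 -0.38 and DDIT3 -0.04, with array 3 weighing as much as arrays 2 and 4 together.

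Normalization by loess, which removes a dye bias that changes with brightness, mattered for ATF4, DDIT4 and DDIT3. The DDIT3 probe was of middling brightness, with 1124 of 2407 named genes at least as bright. With median centring in its place the median of all named genes moved to 0.17, against -0.02 with loess. ATF4 was then -0.05, DDIT4 -0.71 and DDIT3 0.03, all below that median. Under median centring ATF4 read 0.53 and 1.97 on arrays 1 and 3, with OXA in Cy5, and -1.37 and -1.32 on arrays 2 and 4, with OXA in Cy3. DDIT4 read 0.05 and 0.08 against -1.13 and -1.86. Only DDIT3 changed the sign of its mean in any setting tried. The scanner software's log ratio, which has its own dye correction, gave -0.43 for ATF4, -1.06 for DDIT4 and -0.48 for DDIT3.

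**Figure D3:**
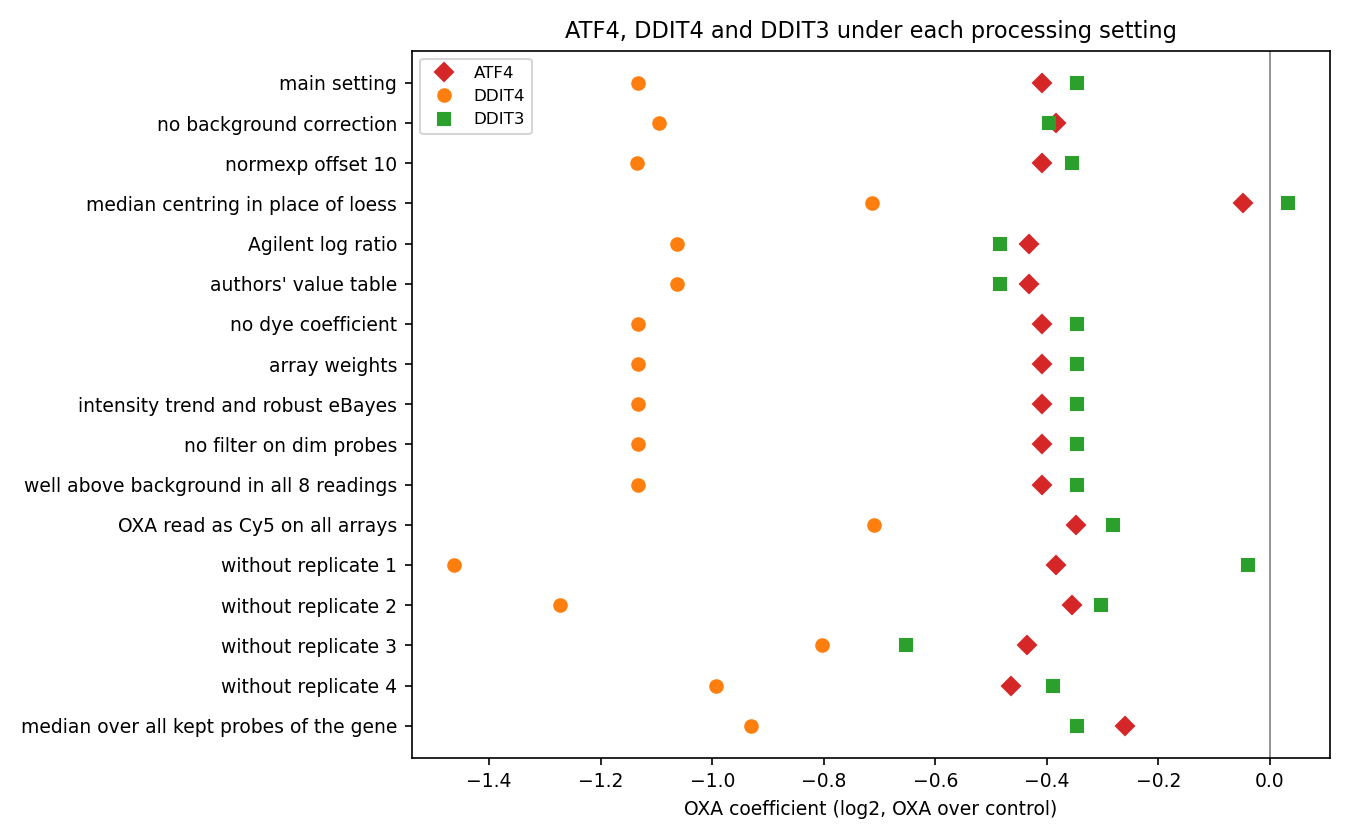
OXA coefficient (log2, horizontal axis) of the brightest probe of ATF4, DDIT4 and DDIT3 under the main setting and each alternative (rows). DDIT4 stays between -1.46 and -0.71, and ATF4 (-0.05) and DDIT3 (0.03) come nearest to or past 0 with median centring.

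By its brightest probe ATF4 read -0.70 on array 3, where its other 5 probes read 0.09 to 0.29. The genes whose 4 ratios lay nearest to those of this 1 probe were sought among the other 2406 named genes. The measure was the root mean square difference over the 4 arrays, and the other 5 probes were not compared. The nearest genes are listed with that difference. They were P4HA1 (a collagen prolyl hydroxylase, 0.15), PDK1 (a pyruvate dehydrogenase kinase, 0.18), CANX (calnexin, a chaperone of the endoplasmic reticulum, 0.19), TCTEX1D4 (0.19) and KCNE3 (a potassium channel subunit, 0.21). CANX read -0.80, -0.14, -0.61 and 0.40 on arrays 1 to 4, following the brightest ATF4 probe most closely on arrays 1 to 3.

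No gene lay as near to DDIT4. Among its 5 nearest were PDK4 (another pyruvate dehydrogenase kinase, 0.66), JUN (an immediate early transcription factor, 0.71), MT1A (a metallothionein, 0.87) and P4HA1 (0.89). PDK4 read -1.40, -0.28, -1.56 and 0.20 on arrays 1 to 4, so it was low on arrays 1 and 3 as DDIT4 was but not on array 4. By their brightest probes ATF4 and DDIT4 differed by 0.99. That put ATF4 in place 13 among the neighbours of DDIT4, and DDIT4 in place 2263 among those of ATF4. The difference between ATF4 and DDIT3 was 0.41, and that between DDIT4 and DDIT3 was 1.30.

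Genes that act with these 3 were taken from 9 lists of 232 genes, of which 68 were measured. Over these 68 genes 0 passed at an adjusted p under 0.05. By a looser rule, a fold of at least 1.2 and a limma p under 0.05 before adjustment, 8 genes (11.8%) were lower and 0 were higher, against 1.87% lower and 0.582% higher over all named genes. Among the 8 were GDF15, JUN, MT1A, PDK4, P4HA1, PDK1 and BTG2, each with an adjusted p of 0.763 in limma. The lists were drawn up with earlier results of these data known, so the share is a description. The 68 had a median of -0.10, and 54 were below 0, against a median of -0.02 and 57.5% below 0 for all named genes. Below 0 on 4 of 4 arrays were 7 of the 68, against 5.86% of all named genes. With median centring the medians of 7 lists described here lay between 0.02 and 0.37, that of the ATF4 partners was -0.03, and 1 of these genes was lower and 5 were higher by the same rule. With OXA in Cy5 on all arrays 3 were lower and 2 higher, without the dye coefficient 4 were lower, and without array 4 there were 9 lower and 4 higher.

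The kinases and phosphatases that set eIF2 alpha were hardly covered, with 4 of 18 genes measured and a median of 0.01. EIF2AK2 (PKR, the kinase that senses double-stranded RNA) was 0.50 (SE 0.30), with 0.81 and 1.33 on arrays 1 and 2 and -0.10 and -0.03 on arrays 3 and 4. DNAJC3, an inhibitor of these kinases, was -0.03. The phosphatase subunits PPP1CA and PPP1CB were -0.12 and 0.05, and none of the 4 was called.

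Partners and feedback genes of ATF4 had 7 of 21 measured, all below 0, with a median of -0.11. GDF15, a secreted stress cytokine whose gene is a known ATF4 and DDIT3 target, read -1.12, -0.69, -0.49 and -0.02 on arrays 1 to 4. Its mean was -0.58 (SE 0.17), and it was below 0 on each array. JUN, a partner of ATF proteins, was -0.50 (SE 0.17), with -0.53, 0.11, -1.37 and -0.19 on arrays 1 to 4. FOS (-0.14), CEBPG (-0.11), VLDLR (-0.09), CEBPB (-0.06) and FGF21 (-0.01) lay nearer to 0, but were dim, with a mean brightness of 10.09 to 10.35. The list's median stood at -0.45 for array 1, against -0.04 to 0.00 elsewhere, but on array 1 CEBPB was at -0.06 and FGF21 at 0.02. The median without array 1 was -0.04. It was -0.32 with the scanner software's ratio and -0.50 over the genes above background in all 8 readings.

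Amino acid genes that ATF4 is known to switch on had 4 of 32 measured, with a median of -0.06 and 0 called in either direction. SLC7A1 (the cationic amino acid transporter CAT-1) read -0.79, 0.10, 0.42 and -0.10 on arrays 1 to 4. CTH (cystathionine gamma-lyase) read -0.69, 0.17, 0.24 and -0.12. Both were low on array 1 only. PHGDH, the first enzyme of serine synthesis, was -0.04, and GPT2, an alanine aminotransferase, was -0.00. PHGDH and GPT2 were dim, at a mean brightness of 10.24 and 10.00, against 13.09 for SLC7A1 and 11.53 for CTH. Their values near 0 therefore say little. The list's median was -0.22 with the scanner software's ratio and 0.08 without array 1.

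Chaperones of the endoplasmic reticulum and the XBP1 arm had 8 of 25 measured, 7 below 0, with a median of -0.12 and 0 called. The median on array 1 was -0.60, against -0.08, -0.03 and 0.15 on arrays 2 to 4. PDIA4, a disulfide isomerase, stood at -1.66 on array 1, against -0.34 to 0.40 elsewhere. XBP1, the transcription factor of the unfolded protein response, was -0.24 (SE 0.14), with 6 of 6 probes between -0.28 and -0.09. The arrays differed more, with -0.85, -0.12, -0.57 and 0.56 on arrays 1 to 4. CANX was -0.29 (SE 0.12) and CALR (calreticulin) -0.12. HSP90B1 (the chaperone GRP94) was 0.12 (SE 0.06), with probes from -0.08 to 0.24. Its ratios split by dye, at -0.40, 0.63, -0.31 and 0.57 on arrays 1 to 4. DNAJB11, an HSP40 cochaperone, was -0.08, and ERO1A, the oxidase that a DDIT3 response raises, was -0.11.

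The mTORC1 pathway, on which DDIT4 acts, had 10 of 52 genes measured, with 6 below 0, a median of -0.08 and 0 called in either direction. TXNIP, which is known to stabilise the DDIT4 protein, was 0.31 (SE 0.21), from -0.16 on array 2 to 0.95 on array 4, with its 7 probes between -0.11 and 0.31. EIF4EBP2, a translation repressor that mTORC1 inactivates, was 0.12, while its other probe was at -0.24. EIF4G1, the scaffold of translation initiation, was -0.40 (SE 0.23), with -1.21 on array 1. LAMTOR2, which anchors mTORC1 at the lysosome, was -0.13, GSK3B -0.14, and the AMP kinase subunits PRKAB1 and PRKAA2 -0.12 and 0.07.

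Of the inputs known to raise DDIT4, the hypoxia list had the lowest median. There 9 of 11 measured genes (of 32) were below 0, with a median of -0.31, and 3 were lower by the looser rule, among them P4HA1 and PDK1. Without array 3 the median was -0.17, and with OXA in Cy5 on all arrays it was -0.05. Its median was -0.71 on array 3, where DDIT4 was lowest, and -0.22 to -0.12 on the other arrays. On array 3 ADM (adrenomedullin) read -0.93, LDHA (lactate dehydrogenase) -1.86 and HMOX1 (heme oxygenase) -0.71, while HIF1A read 0.57 and EPAS1 0.05. On array 1, where DDIT4 was at -1.18, ADM, LDHA and HMOX1 were above 0, at 0.21, 0.49 and 0.21. A link of DDIT4 with this list was not tested. LDHA was singled out after its values were seen. EPAS1, PGK1 and HIF1A were -0.23, -0.10 and 0.18. With median centring the list's median was 0.02, against 0.17 for all named genes.

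The glucocorticoid list had 14 of 26 genes measured and a median of -0.09, with 2 lower by the looser rule, MT1A and PDK4. MT1A read -0.92, -0.78, -0.90 and -0.63 on arrays 1 to 4, the steadiest of the genes near DDIT4. The inhibitor of NF-kappa B NFKBIA was -0.34 (SE 0.12). ANXA1 (annexin A1, raised by glucocorticoids) was 0.57, with 1.88 on array 2 and at most 0.19 elsewhere. HSD11B1 (which makes active cortisol) was 0.05 and LCN2 (lipocalin) -0.11. The list's median on array 3 was -0.00.

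The growth arrest genes BTG2 and GADD45A were also on the lists. BTG2, an antiproliferative gene that was lower by the looser rule, read -0.87, -0.08, -1.09 and 0.44 on arrays 1 to 4, and GADD45A read -1.39, -0.23, -0.42 and 0.05. CCNG1 (cyclin G1) was 0.34 (SE 0.22). Apoptosis genes linked to DDIT3 had 6 of 16 measured, a median of -0.06 and 0 called. CASP8 was -0.06, BCL2L1 -0.07 and BCL2L11 0.07. BCL2L1 and BCL2L11 were dim, each at a mean brightness of 9.98, so their values near 0 say little.

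**Figure D4:**
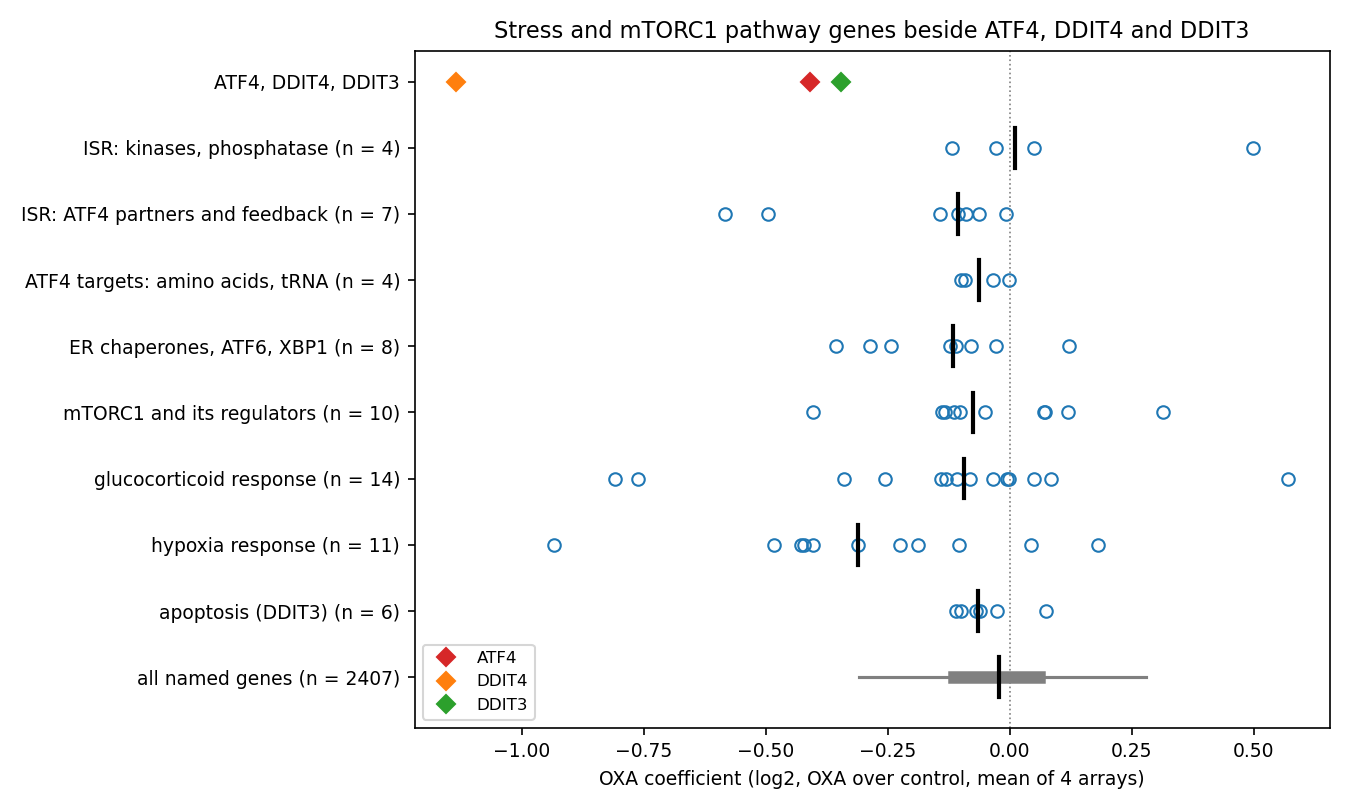
OXA coefficient (log2, horizontal axis) of each measured gene of 8 pathway lists (circles; black bar, median), with ATF4, DDIT4 and DDIT3 as diamonds in the top row. The bottom row gives all 2407 named genes (thick line, central 50%; thin line, central 90%). The list medians lie between -0.31 (hypoxia) and 0.01 (eIF2 kinases and phosphatases), and DDIT4 (-1.13) lies below every listed gene.

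Cell type markers moved on array 1, where the 3 genes were low together, and also on arrays 2 and 4, where ATF4 and DDIT3 were near 0. On array 1 the median of the 3 measured stromal fibroblast markers (of 11, with THY1 named but dim) was 1.44, and on arrays 2 to 4 it was 0.02, 0.08 and 0.26. Their summed intensity was 23464 to 79358 in OXA RNA and 24681 to 57748 in control RNA. Epithelium markers, 9 measured of 14, had a median of -0.64 on array 1, -0.22 on array 2, -0.05 on array 3 and 0.64 on array 4, and their summed intensity was 104214 to 144986 in OXA RNA and 90098 to 218288 in control RNA. On array 3, where DDIT4 was at -2.50, these 2 medians were 0.08 and -0.05. The endothelium markers, 5 of 9, read 0.65 on array 1 and -0.51, -0.06 and -0.41 on arrays 2 to 4. The 9 of 12 macrophage and myeloid markers read 0.37, -0.51, 0.23 and -0.56. Smooth muscle markers, 4 of 8, read 0.10, -0.84, 0.37 and -0.16. T and NK lymphocyte markers, 11 of 15 with CD4 dim, read 0.12, -0.21, 0.18 and -0.08. The myeloid, smooth muscle and lymphocyte medians all split by the dye of OXA, above 0 in Cy5 and below 0 in Cy3. The part of these shifts in the values of ATF4, DDIT4 and DDIT3 was not tested. Epithelium markers such as EPCAM and CDH1 and the stromal genes LUM, DCN and COL1A2 were well above background, as the tissue label would have it. Of 6 B cell genes only CD79A was measured, and 4 of 9 trophoblast genes were measured, with a median of 0.04 (CYP17A1 and CDX2 were dim). None of the 4 red cell genes was named on the array.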

How the data were processed

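The deposited scanner files hold median pixel intensity values of each spot and its local background in both dyes, written by Agilent's Feature Extraction software (version 10.7.3.1), per the file headers. Beside them stands a log10 ratio of Cy5 over Cy3, background-subtracted and dye-normalized by the authors' software per the file headers. Log2 ratios make up the deposited value table, as ratios of OXA over control; for the 11 member probes it equals the scanner log ratio to 2 decimals, which settles direction and scale, with column medians of -0.17, 0.06, -0.06 and 0.09 that show no centring at 0. The other columns used are 0 or 1 marks per spot.

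Median intensities were corrected with normexp (offset 50), normalized by loess within arrays (control and outlier spots at weight 0) and fitted in limma 3.58.1 (R 4.3.3) with OXA and dye coefficients over 26927 probes, well above background in at least 4 of 8 readings and with no outlier spot on any array (135 lost). The fit had 2 residual degrees of freedom. Tests were two-sided, with Benjamini-Hochberg adjustment over all probes. The fit was tested on simulated data. Levels are single-dye values after loess and Aquantile, and are open to dye bias. Of 7125 probes with a RefSeq accession 6700 matched the reference gene table (assembly Sscrofa11.1); the files name no genome build, so no coordinates are given. A gene is represented by its kept probe of highest mean brightness. Named were the members, every measured gene of lists with at most 8 (otherwise the 6 brightest and both extremes), and the 5 nearest genes to ATF4 and to DDIT4. Members, lists, tests and alternatives were chosen with earlier results of these data known. Sequences of the probes, promoters and proteins were not used here. Some genes of the lists, and 1 list, are not reported here.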

Additional observations from a re-analysis of the deposited data

Results flagged for a closer look

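Among the 4 ratios of each member probe and of each named pathway gene (63 sets), 6 had 1 array far from the other 3 by Dixon's criterion, where chance gives about 1 in 20. That rate assumes 4 independent values of equal spread, but the arrays differed in dye and slide, and some sets were probes of 1 gene. DDIT3 stood at -1.24 on array 1, against -0.15 to 0.02 elsewhere. Also on array 1, CEBPG was -0.45 (-0.01 to 0.03 on the others), VLDLR -0.31 (-0.03 to 0.01), BCL2L1 -0.26 (-0.01 to -0.00) and BCL2L11 0.32 (-0.02 to 0.00). CEBPG, VLDLR, BCL2L1 and BCL2L11 were dim (mean brightness 9.98 to 10.24), with little spread outside array 1. For ANXA1 array 2 stood apart, at 1.88 against 0.06 to 0.19. No probe of ATF4 or DDIT4 met the criterion.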

How the results depend on the processing

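The values of ATF4, DDIT4 and DDIT3 moved by less than their SD over arrays under every alternative, from -0.46 to -0.05, from -1.46 to -0.71 and from -0.65 to 0.03, but those SDs are wide. As the median over all probes of the gene, ATF4 was -0.26 and DDIT4 -0.93. Without array 3 DDIT4 was -0.80 and DDIT3 -0.65, and without array 1 DDIT3 was -0.04. Only DDIT3 changed sign, with median centring (0.03).

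Counts of probes by the looser rule, lower and higher with OXA, were 181 and 168. They were 590 and 816 without background correction, 4 and 4293 with median centring, 569 and 1260 with the scanner software's ratio, 572 and 1252 in the authors' deposited table, 119 and 74 with array weights, and 105 and 574 if every array had OXA in Cy5. Lower probes were 114 without the dye coefficient and 84 with an intensity trend and robust fitting, and higher probes were 340 when all 8 readings had to be above background. Leaving out 1 array gave 121 to 1661 lower and 153 to 1654 higher, with 1661 and 1454 without array 3 and 405 and 1654 without array 4. At an adjusted p under 0.05 these fits called 0 to 6 probes, the 6 without array 4.

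Of the pathway genes, 8 lower and 0 higher became 1 and 5 with median centring, 4 lower without the dye coefficient, and 3 and 2 if every array had OXA in Cy5. Leaving out 1 array gave 6 to 11 lower and 0 to 4 higher (4 without array 4). Keeping arrays 2 to 4, the single slide that holds over 1 array, is the same as leaving out array 1. The small number of arrays, and the dim Cy3 channel of array 1, limit what can be seen.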
